A study of Rattus norvegicus with 32 samples.

Results

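Livers taken at the end of a second daily ozone exposure were compared with livers taken at the end of the first, at the same hour after exposure. The arrays were chosen by their titles and are 11 of the 32 arrays of the study. The 5 day 2 livers (2day0hrs-Ozone) came from rats that breathed ozone at 1 ppm for 6 h per day on 2 consecutive days. The 6 day 1 livers (1day0hrs-Ozone) came from rats that breathed the same dose once. Filtered air, given on the same schedule, provided 5 arrays on day 2 (2day0hrs-Air) and 6 on day 1 (1day0hrs-Air). All rats were male Wistar Kyoto (WKY), 10 weeks old and 250 to 300 g, and whole-liver RNA was hybridised to Affymetrix rat 230 PM arrays. Nothing in the labels states that every array came from its own animal, and p-values therefore measure only the spread between these samples. The question was how far the liver transcripts present after the first exposure were still at the same level after a repeat.

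Ozone reacts with the lining of the airways, and inhaling it is known to raise circulating stress hormones and to mobilise glucose and fatty acids from their stores. The liver takes up these fuels, oxidises or stores them, converts cholesterol into bile acids, and secretes acute phase, complement and clotting proteins. Liver stress responses use transcription factors such as NRF2, which drives glutathione synthesis, STAT3 and NF-kappaB, which drive inflammatory genes, and p53, which drives the cell cycle inhibitor p21.

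The values used are linear probe-set intensities. A difference is the mean of log2(intensity + 16) in day 2 ozone livers minus that in day 1 ozone livers, with its standard error (SE), so a value of 1 is close to a doubling. Tests are from limma with Benjamini-Hochberg adjustment over 19062 single-gene probe sets and a threshold of 0.05, and each of 13437 genes is read from its brightest probe set. Background signal remains in the intensities, which makes the differences of dim genes too small. Where probe sets belong to close relatives in a gene family, as in the Cyp2d, Gstm and Oas families, shared hybridisation can mix their signals.

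The 11 ozone arrays had median intensities between 153 and 159, and any pair of them correlated between 0.973 and 0.997 over all single-gene probe sets. The array labelled 2day0hrs-Ozone replicate 5 stood apart. Over centred values it correlated at −0.243 with the mean of its own group and at 0.657 with the ozone livers taken 18 h after day 2. Other arrays that stood apart were 2day0hrs-Air replicate 5, which correlated at −0.508 with its own group and at 0.587 with the day 2 ozone livers, and 1day0hrs-Ozone replicate 3 and 1day0hrs-Air replicate 2. The last 2 had median signals of 66.1 and 54.3 on probes for nonspecific binding, below the other arrays. All arrays were kept under their labels, and counts are also given without 2day0hrs-Ozone replicate 5.

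**Figure D1:**
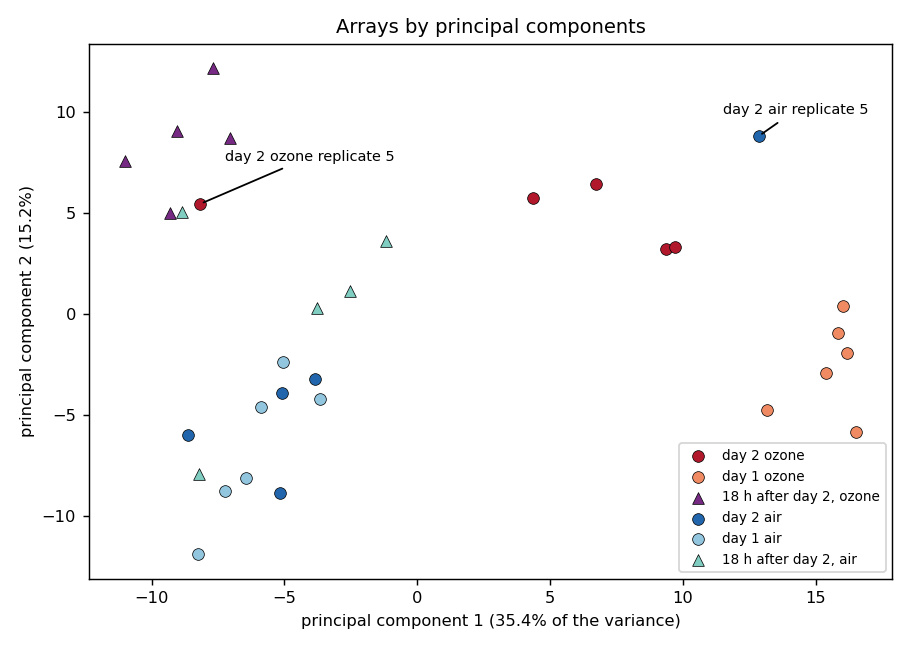
Each point is 1 of the 32 arrays, placed by the first 2 principal components of the centred log2 values over the brightest probe set of each gene (percent of variance on each axis). The 6 day 1 ozone arrays lie between 13.2 and 16.5 on the first component, 4 of the day 2 ozone arrays between 4.37 and 9.69, and day 2 ozone replicate 5 at −8.17, among the arrays taken 18 h later.

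Day 2 ozone livers differed from day 1 ozone livers in 1502 of 13437 genes, or 11.2% of those tested. Of these, 880 were higher on day 2 (6.55%) and 622 lower (4.63%). These shares of all genes are the background for every count of listed genes below. Among the 1502 genes the median size of the difference was 0.23, and 6 genes rose and 6 fell by 2-fold or more. Without 2day0hrs-Ozone replicate 5 the count was 878 genes (6.53%), 531 higher (3.95%) and 347 lower (2.58%), all 1502 genes kept their sign, and 851 of them stayed past the threshold. Without the 4 arrays that stand apart it was 857 (6.38%). In 1206 of the 1502, replicate 5 lay farther from the day 1 mean than the mean of the other 4 day 2 arrays did. The 1502 were called with replicate 5 in the day 2 mean, which favours such genes. The share over all genes was not computed, so this count cannot tell the array from the selection. Day 2 and day 1 arrays did not overlap at all in 933 genes (6.94%), 789 of them among the 1502.

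The livers of air-breathing rats hardly differed between the same days. By limma, 1 of 13437 genes (0.00744%) passed the threshold, Ccnd1, the cyclin D1 gene, which was lower on day 2, and 873 genes had an unadjusted p under 0.05, against 3121 in ozone livers. The SD of the day difference over genes was 0.14 in ozone livers and 0.076 in air livers. The ozone and air day differences themselves differed in 492 genes (3.66%), 298 with a higher ozone difference (2.22%) and 194 with a lower one (1.44%), and 457 of these were among the 1502. Without 2day0hrs-Ozone replicate 5 the count of 492 became 213 (1.59%), and without all 4 arrays that stand apart it was 92 (0.685%). The overlap of 457 follows largely from the design, since both tests use the same ozone arrays.

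**Figure D2:**
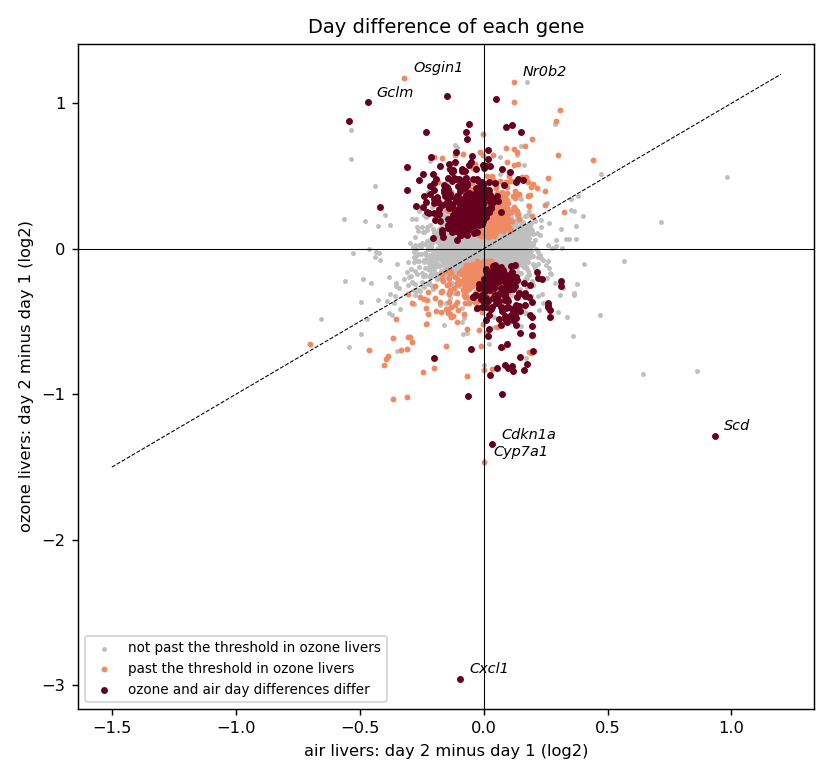
Each point is a gene, with the day 2 minus day 1 difference (log2) of air livers on the x axis and of ozone livers on the y axis, and the dashed line marks equal differences. The 1502 genes past the threshold in ozone livers spread along the y axis, while air differences of the 24 largest changes stay between −0.55 and 0.31.

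The 24 largest changes past the threshold among genes with an established name, 12 in each direction, had sizes of 0.81 to 2.95. In 20 of them the days did not overlap, against 789 of the 1502 genes and 933 of all 13437 (6.94%). The 24 were chosen by their differences between these same arrays, so little overlap follows largely from the choice. Without replicate 5, 23 of the 24 stayed past the threshold, all but Osgin1.

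The largest fall was that of a chemokine. Cxcl1, which attracts neutrophils through the receptor CXCR2, had intensities of 163, 179.9, 151, 159 and 276 in the day 2 ozone livers, against a lowest, median and highest value of 602, 1727 and 2222 in the day 1 ozone livers. Every day 2 array was below every day 1 array, and the day 2 values lay near the 137 to 178 of day 2 air livers and the 119.9 to 346 of day 1 air livers. The difference was −2.95 ± 0.55 (adjusted p = 0.00066), or 7.74-fold, and −3.09 (adjusted p = 0.0015) without replicate 5. None of the other 14 chemokine and adhesion genes listed with it passed the threshold, and the largest of their differences was that of Icam1, at −0.28 ± 0.13 (adjusted p = 0.22).

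The promoter of Cxcl1 is shown because NF-kappaB sites are known to drive this gene in rodents. It is the RefSeq sequence from 250 bases before to 50 after the gene start, GRCr8 chr14:17479272-17479571, minus strand, with the match to the kappaB core GGANTTTCC in capitals.
Cxcl1: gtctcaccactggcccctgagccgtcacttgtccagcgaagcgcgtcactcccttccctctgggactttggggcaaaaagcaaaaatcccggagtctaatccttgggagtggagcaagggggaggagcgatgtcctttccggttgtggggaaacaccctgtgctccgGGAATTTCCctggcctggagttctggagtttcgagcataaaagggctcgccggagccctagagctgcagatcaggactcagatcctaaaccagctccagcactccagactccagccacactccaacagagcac
The match begins 83 bases before the start. GGANTTTCC, searched on both strands, was found in 346 of 27457 rat promoters of this length (1.26%).

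In the acute phase response, 2 regulators were lower on day 2 and several secreted proteins were higher. Stat3, the transcription factor downstream of interleukin 6, read 884, 1012, 918, 804 and 915 on day 2, against 1150.0, 1647 and 2026 (lowest, median, highest) on day 1, with no overlap and a difference of −0.81 ± 0.14 (adjusted p = 0.00025). Bcl3, a nuclear partner of NF-kappaB, differed by −0.67 ± 0.19 (adjusted p = 0.018). They were the 2 of 17 signalling genes that fell, and none rose. The median over the 17 was −0.08, against 0.007 over all genes. Of 23 secreted acute phase proteins, 6 rose and 1 fell (6 and 0 without replicate 5, 3 and 2 after quantile normalization).

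Hamp, which encodes the iron-regulating hormone hepcidin, had the largest of these rises. It read 6576, 6618, 6966, 6204 and 5728 on day 2, against 2999.5, 3841 and 6243 on day 1, where the groups overlapped, and differed by 0.69 ± 0.13 (adjusted p = 0.00072). The other 3 named members rose by less: Itih4 by 0.24 ± 0.046, Apcs, the serum amyloid P gene, by 0.22 ± 0.041, and Itih3 by 0.13 ± 0.032. Serpina3n, a serine protease inhibitor, was the member that fell, with −0.28 ± 0.083 (adjusted p = 0.029), and missed the threshold without replicate 5 (adjusted p = 0.066).

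Iron genes moved in both directions, with 5 of 15 higher and 2 lower. Slc40a1, the iron exporter ferroportin, read 1194, 1309, 1043, 1003 and 1475 on day 2, against 655, 755 and 943 on day 1, with no overlap and a difference of 0.61 ± 0.11 (adjusted p = 0.00055). Tfr2, the transferrin receptor of hepatocytes, rose by 0.30 ± 0.066. Slc39a14, which carries zinc and non-transferrin iron into hepatocytes, fell, with −0.41 ± 0.079 (adjusted p = 0.00083). It was also the 1 change among 10 metallothionein and zinc transporter genes.

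The cell cycle inhibitor p21 showed the third largest fall. Its gene Cdkn1a read 305, 277, 434, 402 and 210.3 on day 2, against 372, 935 and 1111 on day 1. The day 1 low is 1 array, replicate 4, and 2 of the day 2 arrays lie above it, while the other 5 day 1 arrays are above every day 2 array. The difference was −1.34 ± 0.19 (adjusted p = 3.6e-05), and the air groups read 216 to 319 on day 2 and 217 to 264 on day 1. Of 16 growth arrest and p53 target genes, 2 fell and 2 rose. Ccng1, the cyclin G1 gene, was the other fall (−0.49 ± 0.093), and Sesn2 (0.47 ± 0.12) and Bbc3, which encodes the apoptosis protein PUMA (0.29 ± 0.075), were the rises.

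Several genes of DNA synthesis and mitosis were lower on day 2. Of 26 cell cycle genes, 7 fell and none rose (5 and 0 without replicate 5, 12 and 0 after quantile normalization), and the median difference was −0.11. Rrm2, the small subunit of ribonucleotide reductase, had the smallest p in this list. It read 225, 226, 218, 204 and 214 in day 2 ozone livers, against 301, 364 and 481 in day 1 ozone livers, without overlap and with a difference of −0.75 ± 0.073 (adjusted p = 3.7e-07). Ccnb2, Cdk1 and Top2a, which act in mitosis, also fell, Ccnb2 with −0.29 ± 0.045, Cdk1 with −0.24 ± 0.053 and Top2a with −0.20 ± 0.034. The air day difference had the same sign in all 4, at −0.20 for Rrm2, −0.17 for Ccnb2, −0.14 for Cdk1 and −0.12 for Top2a. The test of ozone against air day differences passed for Rrm2, at −0.55 ± 0.10 (adjusted p = 0.0044), and not for the other 3. Ccnb2 was dim, at 93.4 to 99.7 on day 2 and 110.3 to 129.3 on day 1 in ozone livers. Probes for nonspecific binding had medians of 89.1 to 91.4 on the day 2 ozone arrays.

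**Figure D3:**
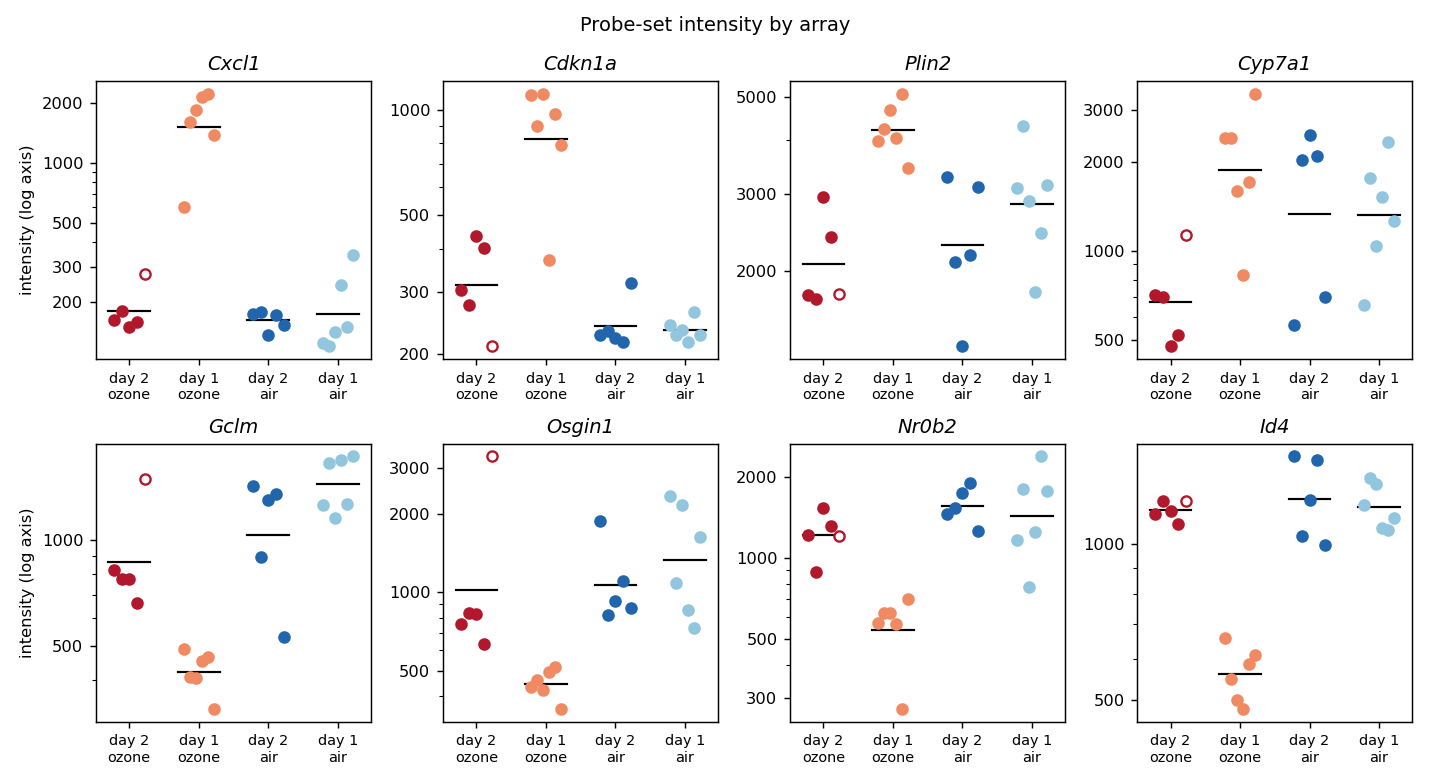
Intensities of 8 genes on a log axis, 1 point per array, in day 2 ozone, day 1 ozone, day 2 air and day 1 air livers, with group means as bars, taken as log2(intensity + 16). The open circle is 2day0hrs-Ozone replicate 5, which is the highest day 2 ozone array for Osgin1 (3332), Gclm (1485) and Cxcl1 (276).

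Several genes of lipid droplets and lipolysis were lower on day 2, and of the phosphatidate phosphatases Lpin2 was higher and Lpin3 lower. Plin2, which coats hepatocyte lipid droplets, read 1755, 1718, 2956, 2394 and 1765 on day 2, against 3437, 4133 and 5099 on day 1, with every day 2 array below every day 1 array and a difference of −1.02 ± 0.20 (adjusted p = 0.00087). Of the 3 probe sets of Plin2, the brightest gave these values. A dimmer probe set gave 0.071 (adjusted p = 0.76), and the remaining one had a difference below 0. The fall was therefore not seen in every probe set. Pnpla2, the triglyceride lipase ATGL, read 319, 310.3, 582, 475 and 234, against 533, 685 and 792 on day 1, and the groups overlapped.

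The Pnpla2 difference was −0.83 ± 0.15 (adjusted p = 0.00066). Fitm2, which helps droplets to bud, fell, with −0.69 ± 0.10 (adjusted p = 7.6e-05), as did Plin5, which links droplets to mitochondria, with −0.48 ± 0.09 (adjusted p = 0.0007). Lpin2, which makes the diacylglycerol for triglyceride, read 747, 629.5, 832, 943 and 471 on day 2, against 272, 354 and 491 on day 1, and rose by 0.95 ± 0.21 (adjusted p = 0.003) with overlapping groups. Lpin3, a relative of Lpin2 named after its value was seen, fell, with −0.14 ± 0.037 (adjusted p = 0.013). In all, 5 of 19 storage and lipolysis genes fell and 2 rose (5 and 3 without replicate 5). Ozone and air day differences differed in 4 of the 19, all lower, against 1.44% of all genes lower in that test. These 4 were Pnpla2, Fitm2, Plin5 and Lpin3, and Plin2 was not among them (adjusted p = 0.17).

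Fabp5 and Fabp7, which belong to no list, were among the largest changes. Fabp5, a fatty acid binding protein of many epithelia, read 205, 195, 237, 270.1 and 278 on day 2, against 364, 506 and 580.2 on day 1, without overlap and with a difference of −0.997 ± 0.16 (adjusted p = 0.00011). Fabp7, a relative first described in brain, read 1261, 1227, 1131, 1285 and 2512, against 584, 798 and 832 on day 1, and differed by 0.88 ± 0.18 (adjusted p = 0.0015). All day 2 values of Fabp7 were above those of day 1, with replicate 5 far above the other 4.

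In fatty acid oxidation the largest change was a fall. Cpt1a, which admits long-chain fatty acids into mitochondria, read 2319, 2425, 2924, 3369 and 1464 on day 2, against 3957, 4187 and 4963 on day 1, without overlap and with a difference of −0.83 ± 0.19 (adjusted p = 0.0045). Angptl4, a secreted inhibitor of lipoprotein lipase that fasting and glucocorticoids induce, differed by −0.88 ± 0.22 (adjusted p = 0.0084) with overlap. Both are in the list of ketogenesis genes and PPARA targets, in which 3 of 17 fell and none rose (4 and 0 without replicate 5).

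The third of the 3 genes of that ketogenesis and PPARA target list that fell was Mlycd, which degrades the Cpt1a inhibitor malonyl-CoA. It differed by −0.32 ± 0.077. Of 22 mitochondrial oxidation genes, 3 rose and 2 fell. The rises, among them Acaa2 (0.26 ± 0.067) and Decr1 (0.29 ± 0.093, adjusted p = 0.091 without replicate 5), numbered 0 after quantile normalization. Of 9 peroxisomal genes 2 fell, and 0 did so without replicate 5. Pex11a, a peroxisome division gene, differed by −0.82 ± 0.24 (adjusted p = 0.027), and without replicate 5 its adjusted p was 0.14. Acot8, a peroxisomal acyl-CoA thioesterase, differed by −0.17 ± 0.052 (adjusted p = 0.038), and without replicate 5 its adjusted p was 0.097.

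Of 18 genes of fatty acid synthesis and desaturation, 4 fell and none rose, with a median of −0.16. The falls numbered 2 without replicate 5 and 6 after quantile normalization. Fads2, the delta-6 desaturase, read 700.3, 809.9, 621, 679 and 700.3 on day 2, against 939, 1099 and 1449 on day 1, without overlap and with a difference of −0.69 ± 0.15 (adjusted p = 0.0027). Elovl5, an elongase of polyunsaturated fatty acids, differed by −0.47 ± 0.11 (adjusted p = 0.0063). Fasn, the fatty acid synthase gene, differed by −0.72 ± 0.24 (adjusted p = 0.048), and without replicate 5 by −0.76 (adjusted p = 0.077). Slc25a1, the mitochondrial citrate carrier, differed by −0.25 ± 0.08 (adjusted p = 0.038), and without replicate 5 by −0.24 (adjusted p = 0.11).

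Scd, the stearoyl-CoA desaturase gene, read 344, 316, 377, 308 and 146 on day 2, against 416, 792 and 1019 on day 1. Its groups did not overlap, but its spread was wide and it missed the threshold at −1.28 ± 0.43 (adjusted p = 0.054). In air livers its difference was 0.94 ± 0.43 (adjusted p = 0.72). The difference between the ozone and air differences was −2.22 ± 0.61 (adjusted p = 0.038), and it missed the threshold without 2day0hrs-Ozone replicate 5, at −1.996 (adjusted p = 0.1).

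In bile acid metabolism, the repressor of synthesis was higher on day 2 and 2 hydroxylases of the synthesis pathway were lower, 1 of them, Cyp8b1, past the threshold only with replicate 5. Nr0b2 encodes SHP, a nuclear receptor without a DNA-binding domain that represses Cyp7a1. It read 1216, 883, 1529.8, 1317 and 1206 on day 2, against 273, 598 and 701 on day 1, and every day 2 array was above every day 1 array. The difference was 1.15 ± 0.27 (adjusted p = 0.0053) and 1.15 (adjusted p = 0.015) without replicate 5. The day 2 ozone values overlapped the 1262 to 1906 of day 2 air livers, while all 6 day 1 ozone values lay below the 781 to 2388 of day 1 air livers.

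Cyp7a1, the rate-limiting enzyme of bile acid synthesis, read 708, 699, 475, 519 and 1128 on day 2, against 827, 2056 and 3404 on day 1. The groups overlapped, in 1 day 1 array below the highest day 2 array, and the difference was −1.46 ± 0.42 (adjusted p = 0.022). Air livers spread from 560.0 to 2475 on day 2 and from 657 to 2331 on day 1, and the test of ozone against air day differences did not pass, at −1.47 ± 0.59 (adjusted p = 0.19). Cyp8b1, which sets the share of cholic acid, differed by −0.56 ± 0.14 (adjusted p = 0.0089), and without replicate 5 by −0.44 (adjusted p = 0.056).

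Conjugation and uptake were represented by 4 rises. Baat, which joins bile acids to glycine or taurine, read 4181, 4515, 3687, 3731 and 5895 on day 2, against 2861, 3032 and 3397 on day 1, without overlap, and rose by 0.48 ± 0.097 (adjusted p = 0.0014). Slc27a5, the bile acid CoA ligase, rose by 0.38 ± 0.062. The uptake carriers Slco1a4 and Slc10a1 rose by 0.37 ± 0.074 and 0.23 ± 0.053. In total 5 of 24 bile acid genes rose and 2 fell (5 and 1 without replicate 5).

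The Nr0b2 promoter is shown for the element CAAGGNCA, which nuclear receptors of the LRH-1 type bind as single molecules. It lies at GRCr8 chr5:151062910-151063209, plus strand, from RefSeq, with the match in capitals.
Nr0b2: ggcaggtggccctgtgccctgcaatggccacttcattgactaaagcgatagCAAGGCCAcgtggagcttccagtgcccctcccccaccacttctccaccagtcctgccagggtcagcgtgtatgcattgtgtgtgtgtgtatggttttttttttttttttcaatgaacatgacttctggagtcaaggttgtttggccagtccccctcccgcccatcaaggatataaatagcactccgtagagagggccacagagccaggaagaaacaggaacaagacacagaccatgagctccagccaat
The match begins 199 bases before the start. CAAGGNCA, searched on both strands, was found in 1761 of 27457 promoters (6.41%).

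Both subunits of the enzyme that starts glutathione synthesis rose, and several other NRF2 targets fell. Gclm, the modifier subunit of glutamate-cysteine ligase, read 820.0, 773, 773, 664 and 1485 on day 2, against 331, 431 and 491 on day 1. All day 2 values were above all day 1 values, replicate 5 far above the rest, and the difference was 1.01 ± 0.19 (adjusted p = 0.00075), or 0.81 (adjusted p = 0.0052) without replicate 5. Air livers read 529.6 to 1421 on day 2 and 1151 to 1726 on day 1. The catalytic subunit Gclc, named after its value was seen, rose by 0.56 ± 0.14 (adjusted p = 0.0076), and by 0.40 (adjusted p = 0.049) without replicate 5.

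Osgin1, an oxidative stress-induced growth inhibitor, had the largest rise of the genes with an established name. It read 756, 833, 826, 634 and 3332 on day 2, against 356, 446 and 516 on day 1, and the groups did not overlap. Replicate 5 was far above the other 4. The difference was 1.18 ± 0.31 (adjusted p = 0.014) with that array and 0.75 (adjusted p = 0.082) without it, so the call rests on 1 array. Air livers read 819 to 1878.5 on day 2 and 733 to 2354 on day 1, and every day 1 ozone value lay below both ranges. Ozone minus air was −0.06 ± 0.33 on day 2 and −1.56 ± 0.30 on day 1. Keap1, which marks NRF2 for degradation, rose by 0.26 ± 0.051 (adjusted p = 0.0013).

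Hmox1, which breaks down heme, read 264, 295, 284, 267 and 328 on day 2, against 392, 531 and 717 on day 1, without overlap, and differed by −0.82 ± 0.19 (adjusted p = 0.005). Gstm1, a glutathione transferase, differed by −0.40 ± 0.078 (adjusted p = 0.00094). Of 29 glutathione and NRF2 genes, 5 rose and 6 fell, and 3 and 2 did so without replicate 5. Of 17 superoxide, peroxide and peroxiredoxin enzymes, 3 rose, by 0.13 (Gpx3) to 0.20 (Gpx4), and 1 did so without replicate 5, while 2 rose and 1 fell after quantile normalization. The second probe set of Gpx4 gave −0.014 (adjusted p = 0.92).

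The Gclm promoter is shown for the antioxidant response element core TGACNNNGC, the letters that NRF2 binds with small MAF proteins. It lies at GRCr8 chr2:213031885-213032184, plus strand, from RefSeq, with the match in capitals, which reads on the other strand.
Gclm: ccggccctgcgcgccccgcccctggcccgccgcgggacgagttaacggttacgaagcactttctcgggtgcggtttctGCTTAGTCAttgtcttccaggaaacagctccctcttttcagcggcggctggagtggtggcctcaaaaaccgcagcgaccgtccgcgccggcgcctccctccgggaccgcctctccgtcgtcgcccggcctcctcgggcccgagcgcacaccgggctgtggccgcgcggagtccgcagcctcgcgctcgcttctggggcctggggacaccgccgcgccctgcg
The match begins 172 bases before the start. TGACNNNGC, searched on both strands, was found in 3342 of 27457 promoters (12.2%), and the windows of Gclc and Osgin1 held 0 matches.

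Some chaperone transcripts were higher on day 2 and fewer were lower, as was so over all genes. Of 20 heat shock genes, 4 rose and 2 fell (3 and 1 without replicate 5), against 6.55% and 4.63% of all genes. Hspa8, the constitutive cytosolic HSP70, read 3191, 3162, 2449.8, 2429 and 4625 on day 2, against 1795, 2107 and 2468 on day 1, with overlap, and rose by 0.55 ± 0.12 (adjusted p = 0.0021). Its partner Dnaja1 rose by 0.54 ± 0.095 (adjusted p = 0.00045) and the small heat shock protein Hspb1 by 0.41 ± 0.10 (adjusted p = 0.0075).

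The mitochondrial cochaperonin Hspe1 fell, with −0.21 ± 0.049 (adjusted p = 0.0056). Of 23 chaperones of the endoplasmic reticulum, 2 rose and none fell, against 6.55% and 4.63% of all genes. Dnajc3, which inhibits the kinase PERK, rose by 0.34 ± 0.067 and the disulfide isomerase Pdia4 by 0.33 ± 0.068. Ozone and air day differences differed in 4 of the 20 heat shock genes and in 2 of the 23 chaperones, Dnajc3 and Pdia4. The ozone difference was the higher one in each, as it was in 2.22% of all genes.

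Complement and clotting factors, which hepatocytes secrete, formed the list with the largest share of rises. Of 28 genes, 15 rose and 1 fell, against 6.55% and 4.63% of all genes, and the median difference was 0.17, against 0.007 over all genes. Without replicate 5 the counts were 10 and 2, and after quantile normalization 10 and 1. Klkb1, the plasma kallikrein gene, read 2455, 2443, 1964, 2293 and 3357 on day 2, against 1554, 1749 and 2018 on day 1, with overlap, and rose by 0.48 ± 0.091 (adjusted p = 0.00072).

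The clotting factors rose by small amounts. F9, missing in haemophilia B, read 5341, 5429, 5169.5, 5118 and 5681 on day 2, against 4292, 4370.0 and 4953 on day 1, without overlap, and rose by 0.26 ± 0.045 (adjusted p = 0.00028). F12 rose by 0.21 ± 0.042. C6, a component of the membrane attack complex, went the other way. It read 741, 741, 770.4, 984 and 876 on day 2, against 1199, 1369 and 1458 on day 1, without overlap, and fell, with −0.70 ± 0.13 (adjusted p = 0.00058). The air day difference of C6 was −0.33 ± 0.13 (adjusted p = 0.72).

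**Figure D4:**
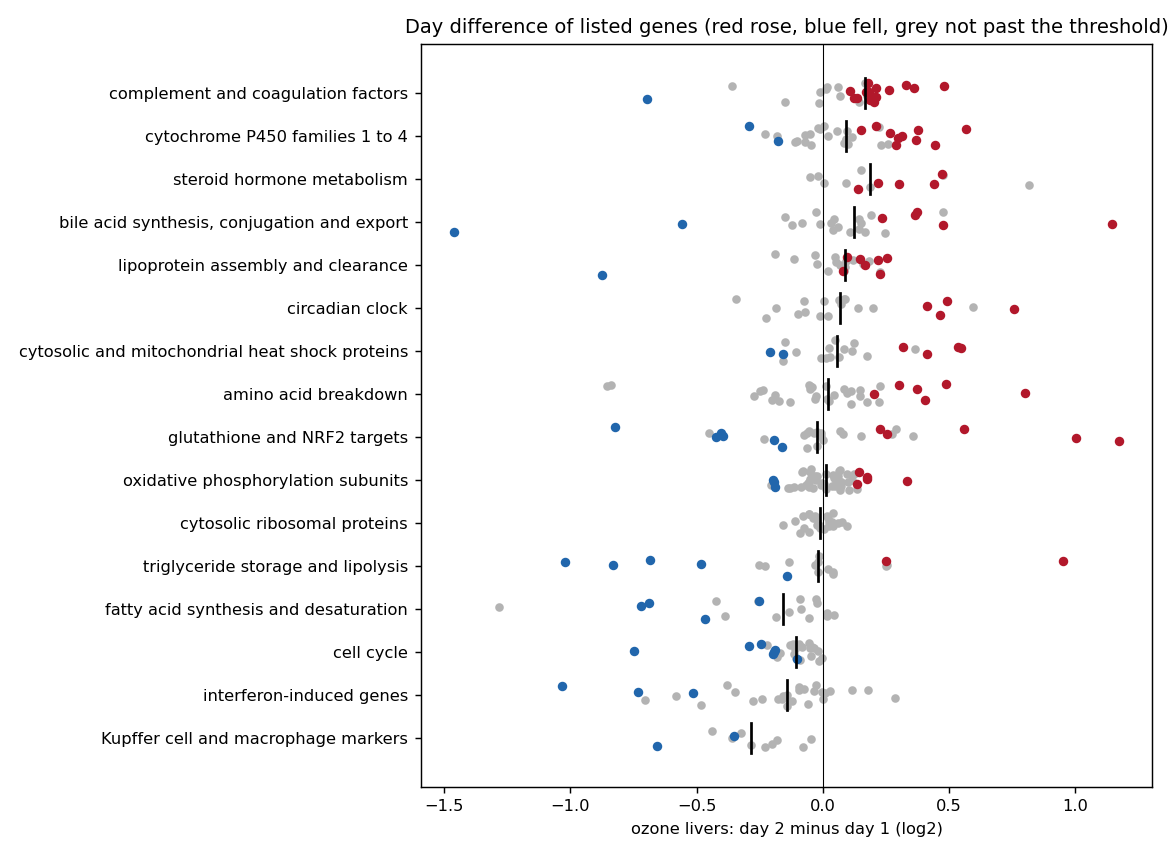
Day 2 minus day 1 differences (log2) of ozone livers for the tested genes of 16 lists, 1 point per gene, with black bars at list medians. Red genes rose, blue genes fell and grey genes did not pass the threshold, with 15 of 28 complement and coagulation factors in red and 7 of 26 cell cycle genes in blue.

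Lipoprotein genes also had more rises than falls. Of 23 lipoprotein genes, 7 rose and 1, Angptl4, fell (3 and 1 without replicate 5, 4 and 2 after quantile normalization). Over all genes 6.55% rose and 4.63% fell. Lcat, which esterifies plasma cholesterol, rose by 0.22 ± 0.041 (adjusted p = 0.00066), and Apoc2, the activator of lipoprotein lipase, by 0.23 ± 0.051 (adjusted p = 0.0034). Apoe rose by 0.095 ± 0.023 (adjusted p = 0.008), a small change in a bright gene, with 9869 to 10023 on day 2 and 8649.8 to 9688 on day 1. Fdft1, the squalene synthase gene, was the 1 of 20 cholesterol synthesis genes to pass, at 0.67 ± 0.17 (adjusted p = 0.012). In limma's test 7 of the 20 had an unadjusted p under 0.05, and the list median was 0.13, against 0.007 over all genes.

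Cytochrome P450 genes, which oxidise drugs, fatty acids and steroids, rose more often than they fell. Of 34 genes in families 1 to 4, 10 rose and 2 fell (8 and 3 without replicate 5), with a median of 0.09. Over all genes 6.55% rose and 4.63% fell. Cyp2d3 read 2778, 2884, 2744, 3005 and 2896 on day 2, against 2041, 2137 and 2416 on day 1, without overlap and with a difference of 0.38 ± 0.046 (adjusted p = 7e-06). Its neighbour in the family, Cyp2d2, rose by 0.27 ± 0.033 (adjusted p = 9.1e-06), and both differed from the air day difference, by 0.44 ± 0.065 (adjusted p = 0.00073) and 0.25 ± 0.047 (adjusted p = 0.004). Cyp4f4, a leukotriene and fatty acid hydroxylase, rose by 0.37 ± 0.073 and Cyp2e1, which oxidises ethanol, by 0.21 ± 0.046. Nr1i3, the drug sensor CAR, rose by 0.50 ± 0.12 (adjusted p = 0.0061), and was 1 of 4 nuclear receptors of 28 to do so.

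Steroid enzymes had a median of 0.19, with 5 of 13 higher and none lower (3 and 0 without replicate 5). Over all genes 6.55% were higher and 4.63% lower. Hsd11b1, which regenerates active glucocorticoid in the liver, read 5597, 5291, 5660.1, 5715 and 5669.7 on day 2, against 3829, 4093 and 4573 on day 1, without overlap, and rose by 0.44 ± 0.063 (adjusted p = 4.2e-05). Hsd17b11 and Hsd17b13, which sit on lipid droplets, rose by 0.30 ± 0.054 and 0.22 ± 0.054. Glucocorticoid-induced genes as a list showed 1 rise, Pck1, the gluconeogenic enzyme, at 0.36 ± 0.065 (adjusted p = 0.00055), and 2 falls, Cdkn1a and Angptl4, of 21. Without replicate 5 the counts were 1 and 3, and the list median moved from −0.13 to 0.03.

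Among conjugating enzymes 5 of 26 rose and 4 fell. Inmt, an indole N-methyltransferase, had the largest change. It read 677, 628, 914, 678 and 506 on day 2, against 244, 344 and 432 on day 1, without overlap, and rose by 1.01 ± 0.18 (adjusted p = 0.00049). The glutathione transferases moved both ways, with Gsto1 and Gstz1 up by 0.22 ± 0.044 and 0.30 ± 0.062 and Gstm4 at −0.37 ± 0.08. Glyatl2, a glycine acyltransferase, read 486 to 553 on day 2, against 254 to 352 on day 1, and rose by 0.84 ± 0.10 (adjusted p = 7e-06).

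Amino acid breakdown genes included 6 rises and no fall among 34, against 6.55% and 4.63% of all genes. Kmo, which hydroxylates kynurenine in tryptophan breakdown, read 1160.3, 1163, 957, 865 and 1236 on day 2, against 525, 620.2 and 725 on day 1, without overlap and with a difference of 0.80 ± 0.097 (adjusted p = 7e-06). Ftcd, of histidine breakdown, rose by 0.37 ± 0.051 (adjusted p = 3e-05) and Prodh2, of hydroxyproline breakdown, by 0.41 ± 0.071 (adjusted p = 0.0004). Without replicate 5 the counts were again 6 and 0. In the urea cycle, 2 of 8 genes fell, the ornithine carrier Slc25a15 (−0.70 ± 0.18) and Asl (−0.47 ± 0.15), and neither passed without replicate 5 (adjusted p = 0.072 and 0.25).

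Glucose genes changed in small numbers. Ppp1r3b, which targets protein phosphatase 1 to glycogen, read 1582, 1405, 1679, 2078 and 2142 on day 2, against 823, 915 and 1187 on day 1, without overlap, and rose by 0.88 ± 0.17 (adjusted p = 0.0012). Of 15 gluconeogenesis genes 3 rose and 1, Gpd1, fell (−0.51 ± 0.098), and 2 rose and 2 fell after quantile normalization. Of 18 uptake and glycolysis genes 4 fell, among them Aldoa (−0.30 ± 0.075) and Pgam1 (−0.25 ± 0.048), and 2 rose, among them the glucose transporter Slc2a1 (0.23 ± 0.055).

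Some clock genes were higher on day 2 at the same hour after exposure. Of 20, 4 rose and none fell (3 and 0 without replicate 5), against 6.55% and 4.63% of all genes. Per2, a repressor of the clock, read 235, 222, 225, 231 and 447 on day 2, against 133, 149 and 172 on day 1, without overlap and with replicate 5 well above the other 4. Its difference was 0.76 ± 0.14 (adjusted p = 0.00072), or 0.57 (adjusted p = 0.0032) without replicate 5. Cry1, its partner, rose by 0.49 ± 0.089 (adjusted p = 0.00052) and the output factor Tef by 0.47 ± 0.07 (adjusted p = 7.7e-05). The air day differences of Per2, Cry1 and Tef were 0.20, 0.15 and 0.13, and in limma's test of ozone against air 0 of the 20 passed, with 5 at an unadjusted p under 0.05. The clock time of each harvest is not given in the sources used here.

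Several of the largest rises belong to no list. Id4, a helix-loop-helix protein that blocks partner factors from binding DNA, read 1143, 1210.3, 1155, 1091 and 1209.8 on day 2, against 480.1, 568 and 659 on day 1. Every day 1 array was below every day 2 array, and the difference was 1.03 ± 0.15 (adjusted p = 4.1e-05). The day 2 values fell within the 995 to 1475 of day 2 air livers. St3gal6, a sialyltransferase, read 796, 817, 694, 569 and 1352 on day 2, against 337, 388 and 427 on day 1, and rose by 1.05 ± 0.16 (adjusted p = 9.8e-05).

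Ptger3, a prostaglandin E2 receptor, rose by 0.81 ± 0.13 (adjusted p = 0.00011) and Slc19a2, a thiamine carrier, by 0.85 ± 0.11 (adjusted p = 2e-05). Neither overlapped between days. The remaining large falls were Lgals9, a galactose-binding lectin, at −1.01 ± 0.14 (adjusted p = 3e-05), Coq10b, a coenzyme Q binding protein, at −0.87 ± 0.17 (adjusted p = 0.00076), Dipk1c, a kinase-domain protein, at −0.84 ± 0.15 (adjusted p = 0.00063), and Cxcl13, a B cell chemokine, at −0.85 ± 0.14 (adjusted p = 0.00026). All 4 were without overlap.

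A few interferon-induced genes were lower on day 2, and the median of the list was below 0 in air livers too. Of 29, 3 fell and none rose (4 and 0 without replicate 5, 6 and 0 after quantile normalization). The median was −0.14 in ozone livers and −0.21 in air livers, and in limma's test between them 0 members passed, with 2 at an unadjusted p under 0.05. Usp18, which removes the modifier ISG15, read 221, 225, 195, 222 and 202 on day 2, against 356, 449.5 and 620.3 on day 1, without overlap, and differed by −1.03 ± 0.24 (adjusted p = 0.0048). Oas1a, an RNA sensor, differed by −0.73 ± 0.19 (adjusted p = 0.0097) and Ifi27 by −0.52 ± 0.10 (adjusted p = 0.0014). Psmb8 and Psmb9, subunits of the immunoproteasome, differed by −0.40 ± 0.11 and −0.61 ± 0.17, and Psmb8 missed the threshold without replicate 5 (adjusted p = 0.053).

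Markers of macrophages moved in the same direction. Of 11 Kupffer cell and macrophage markers, 2 fell, Cd5l (−0.66 ± 0.18) and Csf1r (−0.35 ± 0.11, adjusted p = 0.12 without replicate 5), and all 11 were below 0, with a median of −0.28. The median in air livers was −0.27. Their summed intensity ran from 4461 to 6261 on day 2, against 5625 to 8848 on day 1. No marker is at 0 on these arrays. Their part in the fall of the interferon and chemokine genes was not tested, and in whole liver fewer cells of a type and less RNA per cell cannot be told apart.

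Few markers of other cells passed the test. In limma's test 0 of 11 neutrophil and monocyte markers, 0 of 14 lymphocyte markers and 0 of 4 erythroid markers passed, with 1, 0 and 0 at an unadjusted p under 0.05, and 1 neutrophil and monocyte marker fell after quantile normalization. Hepatocyte markers summed to 70342 to 72893 on day 2, against 67141 to 73528 on day 1, and 1 of 8, Apoh, rose by 0.17 ± 0.05 (adjusted p = 0.064 without replicate 5). The stellate cell markers Dcn and Col3a1 differed by 0.46 ± 0.097 and −0.61 ± 0.19. Of 12 endothelial markers 2 rose, Stab2 (0.26 ± 0.066) and Tek (0.16 ± 0.052, adjusted p = 0.091 without replicate 5). Epcam (0.33 ± 0.081) was the 1 of 9 cholangiocyte markers to rise. Cela1, an elastase, was the 1 of 15 pancreas and adipose markers to fall, with −0.31 ± 0.084 in ozone livers, with −0.30 in air livers.

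Of 18 junction genes 4 rose and none fell (4 and 1 after quantile normalization), against 6.55% and 4.63% of all genes. Among the rises were Cdh1, the E-cadherin gene, at 0.54 ± 0.12 (adjusted p = 0.0033), and Ocln, a tight junction protein, at 0.31 ± 0.063 (adjusted p = 0.0014). Of 22 choline phospholipid genes, 4 rose and 4 fell, and 3 and 2 did so without replicate 5. The choline carrier Slc44a1 rose by 0.39 ± 0.061 and the last enzyme of phosphatidylcholine and phosphatidylethanolamine synthesis, Cept1, by 0.49 ± 0.11. Chdh, which oxidises choline, differed by −0.49 ± 0.10, and the glycerophosphocholine phosphodiesterase Gpcpd1 by −0.41 ± 0.072. Of 14 pericentral zonation genes 4 fell and 1 rose (2 and 1 without replicate 5), with Gulo, an enzyme of vitamin C synthesis, at −0.45 ± 0.08 (adjusted p = 0.0004), and Axin2, a Wnt feedback gene, at −0.13 ± 0.039 (adjusted p = 0.033) and past the threshold only with replicate 5 (adjusted p = 0.14 without it).

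Respiratory chain and ribosomal genes differed little in size between the days. Of 52 oxidative phosphorylation subunits 5 rose and 3 fell (2 and 1 without replicate 5, 4 and 8 after quantile normalization), the largest change being that of Ndufa6, a complex I subunit, at 0.34 ± 0.05 (adjusted p = 6.9e-05). Of 27 cytosolic ribosomal proteins 0 passed in limma's test and 2 had an unadjusted p under 0.05, with differences from −0.16 to 0.10, and 3 fell after quantile normalization. Of 30 proteasome subunits 2 fell (1 without replicate 5, 4 after quantile normalization). Of 23 immediate early genes 0 passed in limma's test and 2 had an unadjusted p under 0.05, although their differences ran from −0.59 to 1.15. Of 23 growth hormone axis genes, Hsd3b5, a 3-ketosteroid reductase, rose by 0.47 ± 0.13 (adjusted p = 0.015) and Serpina3n fell, and neither passed without replicate 5 (adjusted p = 0.088 and 0.066). The insulin signalling list held 1 rise of 22, and the list of ATF4 targets 1 rise, Sesn2, of 25 (2 without replicate 5, and 2 rises and 1 fall after quantile normalization). Of 17 genes that serve P450 enzymes or make heme, 1 rose and 1, Hmox1, fell (0 and 1 without replicate 5), and of 14 antigen presentation genes 2 fell (1 without replicate 5). The cold-inducible genes Rbm3 and Cirbp were not called, with a median of −0.47 and both at an unadjusted p under 0.05.

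Set against air at each day, the named genes gave the following pairs, which share the ozone arrays above and are given side by side. Cxcl1 in ozone minus air livers was 0.14 ± 0.57 on day 2 and 3.004 ± 0.52 on day 1. Cdkn1a was 0.37 ± 0.20 on day 2 and 1.75 ± 0.18 on day 1. Id4 was −0.07 ± 0.15 on day 2 and −1.05 ± 0.14 on day 1. These 3 genes were nearer to air on day 2.

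Gclm was −0.25 ± 0.20 on day 2 and −1.73 ± 0.18 on day 1, and Nr0b2 −0.36 ± 0.28 on day 2 and −1.39 ± 0.26 on day 1. Cyp7a1 was −0.96 ± 0.44 (adjusted p = 0.43) on day 2 and 0.50 ± 0.40 (adjusted p = 0.42) on day 1. For Plin2 the values were −0.15 ± 0.20 on day 2 and 0.56 ± 0.19 on day 1. Gclm was farther below air on day 1, by the test of ozone against air day differences, while that test did not pass for Nr0b2 (adjusted p = 0.14), Plin2 (adjusted p = 0.17) or Cyp7a1 (adjusted p = 0.19).

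Among the 492 genes past the threshold of that test, the 5 with the largest differences in each direction were as follows. The ozone day difference was higher than the air day difference for Gclm, Fabp7, St3gal6, Ptger3 and Id4. It was lower than the air day difference for Cxcl1, Scd, Cdkn1a, Fabp5 and Pnpla2. The difference was 1.47 ± 0.27 (adjusted p = 0.0036) for Gclm and −2.86 ± 0.78 (adjusted p = 0.036) for Cxcl1. Several genes that missed the threshold had differences of like size, among them Osgin1 (1.497) and Cyp7a1 (−1.465). Without 2day0hrs-Ozone replicate 5, 8 of the 10 passed, and without 2day0hrs-Air replicate 5, 9 did. Cxcl1 missed the threshold in both cases (adjusted p = 0.054 and 0.059) with differences of −3.0 and −2.88. Without all 4 arrays that stand apart 5 of the 10 passed.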

How the data were processed

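Liver RNA of 32 rat samples was measured on Affymetrix rat 230 PM arrays. The authors deposited probe-set intensity values on a linear scale, made, per the submitters' processing notes, by Affymetrix Expression Console and its PLIER algorithm, with versions, background correction and scaling not given in the sources used here. Groups and replicate numbers came from the titles. Of 31139 probe sets, 97 controls, 11407 without a gene and 573 with several genes in GEO's platform annotation were left out, and 18983 of the remaining 19062 had an Entrez identifier in RefSeq. Values were tested as log2(intensity + 16) in R 4.3.3 with limma 3.58.1 (1 model with 6 group means over 32 arrays, eBayes with trend), checked on simulated data. The number of arrays limits the precision. Promoters are RefSeq's for GRCr8.

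The genes named were, by rule, the 12 largest rises and falls past the threshold, the 5 largest in each direction of the ozone against air test, and up to 4 members of each list by p. Icam1, Gclc, Cyp8b1, Ccnd1, Rbm3, Cirbp and Lpin3 fall outside it and were chosen after their values were seen. The comparison, lists and tests were chosen with earlier results of these data known. Alternatives covered the offset, normalization, low-value filter, arrays used, spread estimate, replicate block and left-out arrays. Tables and figures were made in Python 3.11.15 using pandas 2.3.3, numpy 2.4.6 and, for plots, matplotlib 3.10.9.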

Additional observations from a re-analysis of the deposited data

Results flagged for a closer look

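Among 296 pairs of a named gene and an ozone group, 27 had an array whose gap to its nearest neighbour, as a share of the group's range, exceeded Dixon's 95% limit, and chance alone gives about 1 in 20. Of the 27, 16 were in day 2 ozone livers and 11 in day 1 ozone livers, and 8 were the array labelled 2day0hrs-Ozone replicate 5. That array was highest, with gap shares in parentheses, for Per2 (0.918), Fabp7 (0.841), Osgin1 (0.838), Hspb1 (0.814), Gclm (0.74) and Cxcl1 (0.711), and lowest for Scd (0.784) and Cyp8b1 (0.728).

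In the other day 2 ozone arrays, replicate 1 was highest for Prodh2 (0.722) and Itih3 (0.711) and lowest for Gstm1 (0.756) and Slc10a1 (0.733). Replicate 4 was highest for Acadm (0.849) and Bbc3 (0.712), replicate 3 lowest for Acaa2 (0.801) and replicate 2 lowest for Hsd11b1 (0.731). In day 1 ozone livers, replicate 1 was highest for F9 (0.824) and lowest for Serpina3n (0.716) and Cxcl1 (0.637). Replicate 2 was lowest for Ftcd (0.809), Chdh (0.704) and Cox5b (0.656), replicate 6 for Fabp7 (0.782) and Dcn (0.728), replicate 5 for Nr0b2 (0.768), replicate 4 for Cdkn1a (0.687) and replicate 3 for Nr1i3 (0.65).

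Ozone and air day differences differed, by limma's test of that difference, in 56 of the 148 named genes, 35 with a higher and 21 with a lower ozone difference. The share was 3.66% over all 13437 genes and 30.4% over the 1502 genes called in ozone livers. Most named genes were chosen by the ozone day difference, which is part of this test, and some by the test itself. A high count among them therefore follows largely from the choice. The same test passed in 35 of the 56 without 2day0hrs-Ozone replicate 5, in 43 without 2day0hrs-Air replicate 5 and in 15 without the 4 arrays that stand apart, and all 56 kept their sign under these 3 settings. The values that follow are the ozone day difference minus the air day difference, on the log2 scale. Those above 0.6 were those of Gclm (1.473), Fabp7 (1.42), St3gal6 (1.196), Ptger3 (1.036), Id4 (0.979), Gclc (0.866), Glyatl2 (0.747), Slc19a2 (0.734), Hsd3b5 (0.73), Hspa8 (0.686), Dnaja1 (0.658), Kmo (0.648), Cept1 (0.634) and Cdh1 (0.621). Smaller positive values were those of Baat (0.596), Slc40a1 (0.596), Hspb1 (0.557), Klkb1 (0.556), Slco1a4 (0.52), Dnajc3 (0.452), Cyp2d3 (0.443), Epcam (0.405), Pdia4 (0.403), Slc44a1 (0.395), Prodh2 (0.384), Pck1 (0.376), Acaa2 (0.367), Hsd11b1 (0.361), Ndufa6 (0.354), Ftcd (0.347), Ocln (0.313), Keap1 (0.298), Slc10a1 (0.278), Cyp2d2 (0.254) and Gsto1 (0.219). The ozone difference was the lower one for Cxcl1 (−2.858), Scd (−2.219), Cdkn1a (−1.38), Fabp5 (−1.071), Pnpla2 (−0.998), Dipk1c (−0.958), Lgals9 (−0.948), Stat3 (−0.922), Slc25a15 (−0.902), Coq10b (−0.895), Asl (−0.737), Fitm2 (−0.636), Ccng1 (−0.582), Chdh (−0.578), Plin5 (−0.577), Rrm2 (−0.549), Slc39a14 (−0.528), Gpcpd1 (−0.446), Mlycd (−0.399), Pgam1 (−0.267) and Lpin3 (−0.189).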

How the results depend on the processing

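Day 2 against day 1 in ozone livers gave 1502 genes, 857 without the 4 arrays that stand apart, 878 to 1544 with 1 array left out, and 1223 to 1815 under the other alternatives, the highest after quantile normalization. The low end of the left-out range is without 2day0hrs-Ozone replicate 5. Air livers gave 1 gene, 0 to 6 with 1 array left out, 2 after quantile normalization, 0 with only the groups of the contrast and 0 without the 4 arrays. Ozone against air day differences gave 492 genes, 213 to 721 with 1 array left out (312 without 2day0hrs-Ozone replicate 1 and 316 without 2day0hrs-Air replicate 5) and 92 without the 4 arrays. With the replicate number as a block the counts were 1231, 2 and 316. Same-numbered day 2 and day 1 arrays correlated between −0.197 and 0.299 in ozone livers and between −0.283 and 0.378 in air livers. Differently numbered arrays were not compared, so these values cannot decide whether the numbers pair the samples. Of 140 named genes past the threshold, 24 missed it without 2day0hrs-Ozone replicate 5, 4 to 15 without any 1 of the other 10 arrays, 31 without the 4 arrays and 13 with the block, and none changed sign under these settings. Other probe sets of named genes were past the threshold in the same direction in 26 cases and not past it in 16. They reversed in 2 cases, Plin2 (0.071) and Gpx4 (−0.014), and the cause was not tested. Scaling moved the median difference of all genes between −0.002 and 0.007. Signal near background limits the differences of dim genes, and array number limits all of them.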
